A study of Homo sapiens with 9 samples.

Results

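The genes described here are 35 members of the ATF4 branch of the integrated stress response: ATF4 itself and its regulators, amino acid enzymes, transporters, and tRNA charging genes. They were chosen by name, by matching a fixed list of symbols to the gene symbols of the deposited count tables. The list was chosen with earlier results of these data known, so the share of members called is not independent of these data. All 35 were found among the 60664 genes listed, and all 35 were among the 18299 genes with enough reads to be tested. The study asked how depletion of TTC33 or of CCDC97 alters gene expression in HEK293 Flip-In T-Rex cells, a human embryonic kidney line with an engineered site for inserting a tetracycline-controlled transgene. Total RNA was sequenced in 9 libraries. The 3 control libraries were of the parental line, which expressed no introduced microRNA. Of the others, 3 were of cells with an introduced microRNA against CCDC97 and 3 of cells with one against TTC33. Each introduced microRNA was under a tetracycline-inducible promoter. All 9 samples, controls included, received tetracycline at 100 ng/ml for 3 days. The controls carry no introduced microRNA, so the effect of depleting a target and that of expressing an introduced microRNA cannot be told apart. Whether replicates came from separate cultures is not stated in the labels. The p-values therefore reflect the spread among 3 libraries per group, and that spread could be technical.

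The integrated stress response begins with kinases that phosphorylate the translation factor eIF2 when amino acids run short, unfolded proteins build up, haem is lacking or viral RNA is present. General protein synthesis then slows, while translation of the ATF4 mRNA increases through short upstream reading frames. ATF4, a basic leucine zipper protein, pairs with C/EBP family proteins and switches on genes for amino acid synthesis, amino acid uptake and tRNA charging, along with feedback genes that restore translation. Much of the control of ATF4 is at the level of translation, which mRNA counts do not measure.

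ATF4 and its partners are known to bind a composite element with the core letters TGATGNAA. The promoter windows of 300 bases around annotated start sites (RefSeq, GRCh38.p14) were searched on both strands for these letters, because they link the members to the factor. Windows were found for 28 of the 35 members, and 9 of the 28 (32.1%) held a match, against 1217 of 27305 genes in the whole table (4.46%). Counted by window, 9 of 42 member windows (21.4%) and 1270 of 35116 windows (3.62%) held one. The matches are printed 5′ to 3′ on the strand that carries the motif, with the motif in capitals.
ATF3 (chr1:212565206-212565233, plus strand): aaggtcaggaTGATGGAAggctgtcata
CHAC1 (chr15:40953252-40953279, minus strand): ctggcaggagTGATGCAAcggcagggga
ASNS (chr7:97872459-97872486, minus strand): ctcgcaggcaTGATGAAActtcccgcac
SLC7A1 (chr13:29595664-29595691, minus strand): ggcgcactgcTGATGAAAcctggcgccg
SLC3A2 (chr11:62881726-62881748, minus strand): ggagcTGATGTAAggagtcctgc
AARS1 (chr16:70289676-70289703, plus strand): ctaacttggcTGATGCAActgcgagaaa
GARS1 (chr7:30594835-30594862, minus strand): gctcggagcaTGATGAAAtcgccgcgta
CARS1 (chr11:3057408-3057435, plus strand): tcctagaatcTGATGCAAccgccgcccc
NARS1 (chr18:57621805-57621832, minus strand): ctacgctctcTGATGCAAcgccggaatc
The last core letters of these matches differ: TGATGCAA occurs in CHAC1, AARS1, CARS1 and NARS1, and TGATGAAA in ASNS, SLC7A1 and GARS1. ATF3 holds TGATGGAA, and SLC3A2 holds TGATGTAA. A match describes these letters in this window and is not evidence of binding.

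Gene counts were 21764203 to 36110891 per library. The targeted mRNAs matched their labels: TTC33 was at 37.1 to 38.6 counts per 1000000 (CPM, scaled by TMM factors) in the controls and 6.16 to 9.67 in its knock-down, and CCDC97 at 59.5 to 60.6 and 15.3 to 15.9. CCDC97 was also at 65.1, 81.3 and 95.8 CPM in the TTC33 knock-down, higher than control by 0.43 on the log2 scale (edgeR adjusted p = 0.0371). All 10 markers of HEK293 cells had counts in all libraries, from NEFM at 0.608 to 1.12 CPM to VIM at 587 to 819. The controls had a summed level of 1460 to 1500 CPM of these markers, against 1440 to 1470 for CCDC97 and 1630 to 1690 for TTC33 knock-down. VIM alone had a mean of 615.5 CPM in the controls and 779.6 in the TTC33 knock-down. In that knock-down 2 of the 10 were higher (VIM and INA) and 2 lower (NEFL and EPCAM) at an edgeR adjusted p under 0.05. That is 40%, against 11.9% of all genes. None of 5 blood and 5 hepatocyte markers reached 1 CPM, and HBB and SERPINA1 were at 0 in all libraries. The 5 endothelial markers summed to 0.463 to 0.951 CPM in the controls, 0.396 to 0.743 in the CCDC97 and 1.26 to 1.46 in the TTC33 knock-down. The 5 fibroblast markers summed to 7.17 to 9.2, 6.29 to 8.7 and 8.1 to 10.6 CPM in the same order, mostly COL1A1. Among them LUM was at 0.0829 to 0.136 CPM in the controls and 0.421 to 1.09 in the TTC33 knock-down (edgeR adjusted p = 0.011), and DCN had 0 counts in the controls and 3 to 6 in the TTC33 libraries. The part of these differences in the results was not tested.

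Libraries of 1 knock-down differed from each other in how counts varied with the GC content of the transcript. In the decile of genes lowest in GC content (median 36.7%), the median log2 difference from control was 0.025 in replicate 1 of the TTC33 knock-down and -0.44 and -0.48 in replicates 2 and 3. In the highest decile (median 63.9%) it was -0.088, 0.37 and 0.40. The CCDC97 knock-down showed -0.15, 0.16 and 0.15 in the lowest decile and 0.15, -0.28 and -0.28 in the highest. Some results are therefore also given with a correction for GC content and length. Values not marked as corrected are without it.

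In the controls the ATF4 mRNA was the most abundant member per length, at 251 CPM per kb of its longest transcript. EPRS1 at 94.6, SLC38A2 at 85.3 and SHMT2 at 83.7 CPM per kb came next, and SLC7A3 at 0.442 and NUPR1 at 0.0377 were lowest. Of the 35 members, 30 had a mean of 10 CPM or more in the controls. The summed level of the members was 4590 to 4688 CPM in the controls, 4690 to 5035 with CCDC97 depleted and 4138 to 4290 with TTC33 depleted, so every TTC33 knock-down library lay below every control. In bulk RNA, fewer cells expressing a gene and less RNA per cell cannot be told apart.

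**Figure D1:**
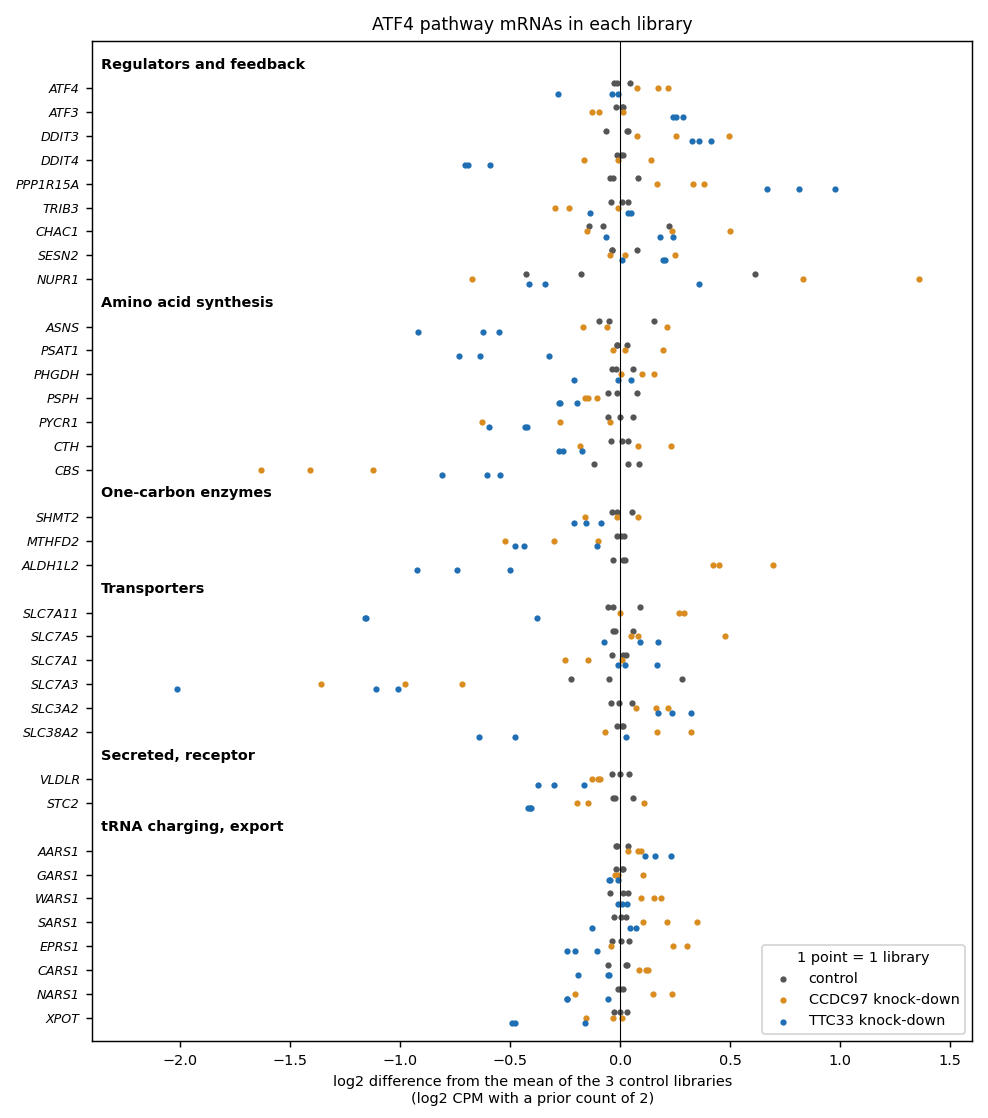
Each point is 1 library, placed on the x axis by its log2 difference from the mean of the 3 controls, with the 35 members on the y axis by role. The TTC33 knock-down libraries (blue) lie to the left of the controls for 17 members and to the right for 5.

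After TTC33 knock-down, 14 of the 35 members (40%) passed an adjusted p of 0.05 in edgeR's quasi-likelihood test, and most of these fell. The 11 that fell were DDIT4, 4 amino acid enzymes (ASNS, PSAT1, PYCR1, CBS), the one-carbon enzyme ALDH1L2, the transporters SLC7A11 and SLC7A3, the genes VLDLR and STC2, and the tRNA exporter XPOT. The 3 that rose were ATF3, PPP1R15A and SLC3A2. Over all genes tested 11.9% were called, 6.5% as higher and 5.44% as lower. The median log2 fold change was -0.18 over the members and 0.0045 over all genes tested. All 3 TTC33 libraries lay below all 3 controls for 17 members and above them for 5, where 17.8% of all genes lay below and 19% above.

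The number of members that fell depended on single libraries: it was 3, 4 and 6 without control replicates 1, 2 and 3, and 5 without TTC33 replicate 2 or 3. Over the 9 fits that leave out 1 library it reached 14, and the share of all genes called ran from 2.96% to 34.9%. A call is described as lost without a library where the fit to the other 8 libraries put its adjusted p at 0.05 or more. With the GC and length correction 3 members rose and 16 fell, 13 of the 14 calls were kept, and 28% of all genes were called. The 6 members called only with the correction were ATF4, TRIB3, PSPH, SHMT2 and MTHFD2, which were lower, and DDIT3, which was higher.

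**Figure D2:**
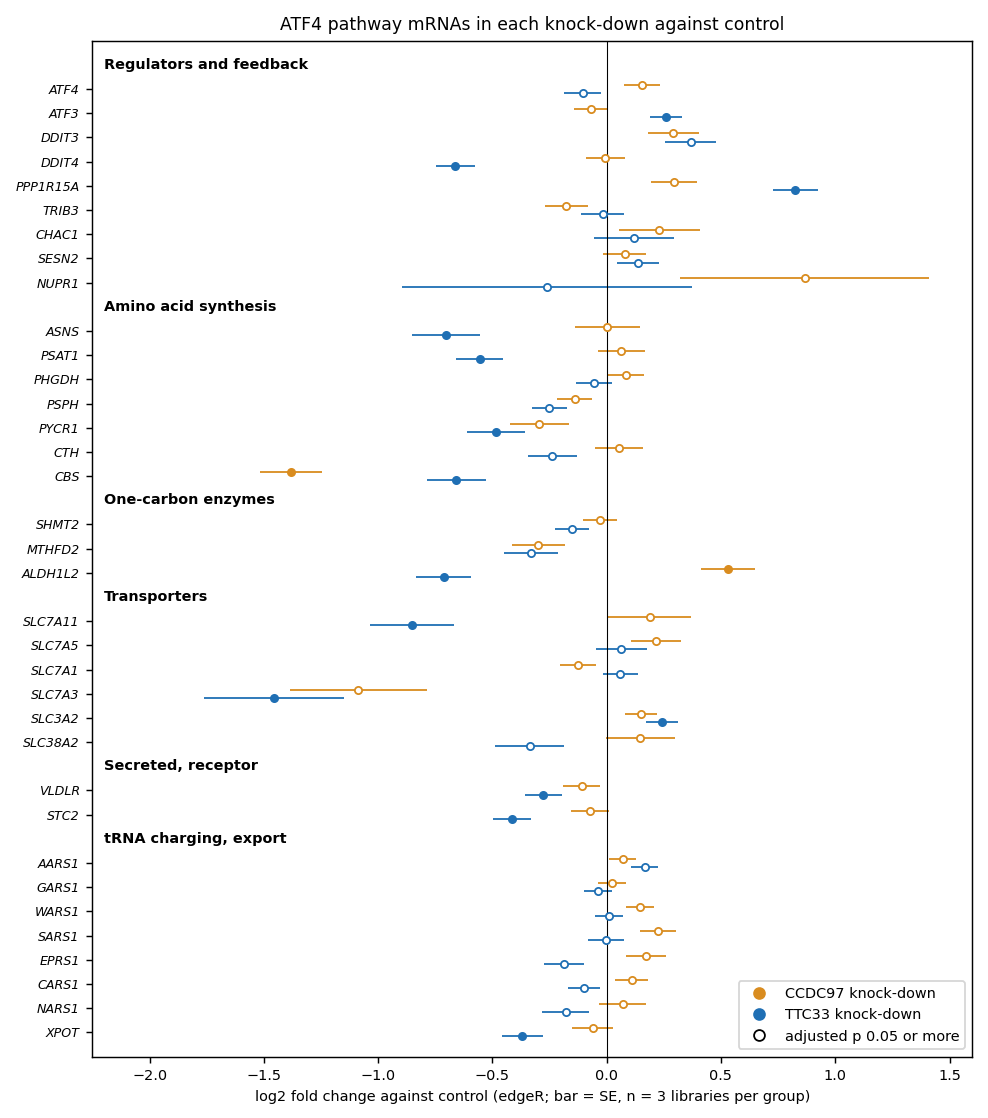
Log2 fold changes against control (x axis) for each member (y axis, by role), with the SE as bars (n = 3 libraries per group). Filled points have an adjusted p under 0.05: 14 members in the TTC33 knock-down (blue) and 2 in the CCDC97 knock-down (orange).

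Among the 9 regulators and feedback genes, 2 rose and 1 fell after TTC33 knock-down (33.3%, against 11.9% of all genes). The median log2 fold change was 0.12. ATF4 (ENSG00000128272, chr22:39519695-39522685, plus strand) encodes the transcription factor itself; gene positions are those of GENCODE release 29 on GRCh38. Its mRNA was at 496, 502 and 523 CPM in control replicates 1 to 3, 571, 589 and 534 after CCDC97 knock-down and 417, 494 and 504 after TTC33 knock-down, in the same order. Only the CCDC97 libraries stood clear of the controls, all 3 of them higher. Against control the log2 fold change was -0.11 ± 0.079 (SE) for TTC33, with an adjusted p of 0.387 in edgeR, and 0.15 ± 0.079 for CCDC97 (adjusted p = 0.301). The GC correction brought both past the threshold, at -0.24 (edgeR adjusted p = 0.00518) and 0.21 (0.0178).

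PPP1R15A (ENSG00000087074, chr19:48872392-48876057, plus strand) encodes GADD34, the phosphatase subunit that reverses eIF2 phosphorylation. It was at 22.3, 22.4 and 24.3 CPM in the controls, 29.9, 25.8 and 28.9 in the CCDC97 and 36.5, 40.5 and 45.3 in the TTC33 knock-down, so the 3 groups did not overlap. It rose after TTC33 knock-down by 0.82 ± 0.10 on the log2 scale (edgeR adjusted p = 0.000648), and this call held in each fit without 1 library. With the GC correction the rise was 0.66 (adjusted p = 6.84e-06). In the CCDC97 knock-down its log2 fold change was 0.29 ± 0.10 (edgeR adjusted p = 0.121), and 0.37 with the GC correction, which passed the threshold (adjusted p = 0.00199).

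ATF3 (ENSG00000162772, chr1:212565334-212620777, plus strand) encodes a leucine zipper repressor that ATF4 induces. It was at 33.9, 33.3 and 34.1 CPM in the controls, 31.6, 34 and 30.9 in the CCDC97 and 41.2, 40.2 and 39.9 in the TTC33 knock-down, where all 3 libraries were above every other library. The rise after TTC33 knock-down was small, 0.26 ± 0.071 on the log2 scale (edgeR adjusted p = 0.0384), and was lost without any 1 of the controls, CCDC97 replicate 3 or TTC33 replicate 2 or 3 (adjusted p 0.0587 to 0.153).

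DDIT3 (ENSG00000175197, chr12:57516588-57521737, minus strand) encodes CHOP, a factor tied to cell death under lasting stress. It was at 7.41, 7.92 and 7.96 CPM in the controls, 9.27, 10.9 and 8.18 in the CCDC97 and 10.3, 9.74 and 9.95 in the TTC33 knock-down, so both knock-downs lay wholly above the controls. Neither passed the test: the log2 fold change was 0.37 ± 0.11 for TTC33 (edgeR adjusted p = 0.0539) and 0.29 ± 0.11 for CCDC97 (adjusted p = 0.168). With the GC correction the TTC33 value was 0.35 and passed (adjusted p = 0.0113). Of the 1307 exon bases of DDIT3, 355 are shared with MARS on the other strand, and the strand setting of the counting is not given in the sources used here, so reads there cannot be told apart.

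DDIT4 (ENSG00000168209, chr10:72273920-72276036, plus strand) encodes REDD1, an inhibitor of mTORC1 signalling. It was at 58.7, 59.4 and 59.7 CPM in the controls, 65.3, 58.8 and 52.8 in the CCDC97 and 36.7, 39.3 and 36.3 in the TTC33 knock-down. The TTC33 libraries were below all others, and the CCDC97 libraries lay on both sides of the controls. DDIT4 fell by 0.66 ± 0.085 on the log2 scale after TTC33 knock-down (edgeR adjusted p = 0.000996), a call that held in each fit without 1 library. It shares 847 of its 2058 exon bases with the antisense gene DDIT4-AS1. The other regulators, TRIB3, CHAC1, SESN2 and NUPR1, had overlapping libraries in every comparison and passed no test without the GC correction. With it TRIB3 was lower for TTC33, at -0.20 (edgeR adjusted p = 0.033), and SESN2 was higher for CCDC97, at 0.18 (0.0223). NUPR1 rested on 2 to 17 counts per library.

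**Figure D3:**
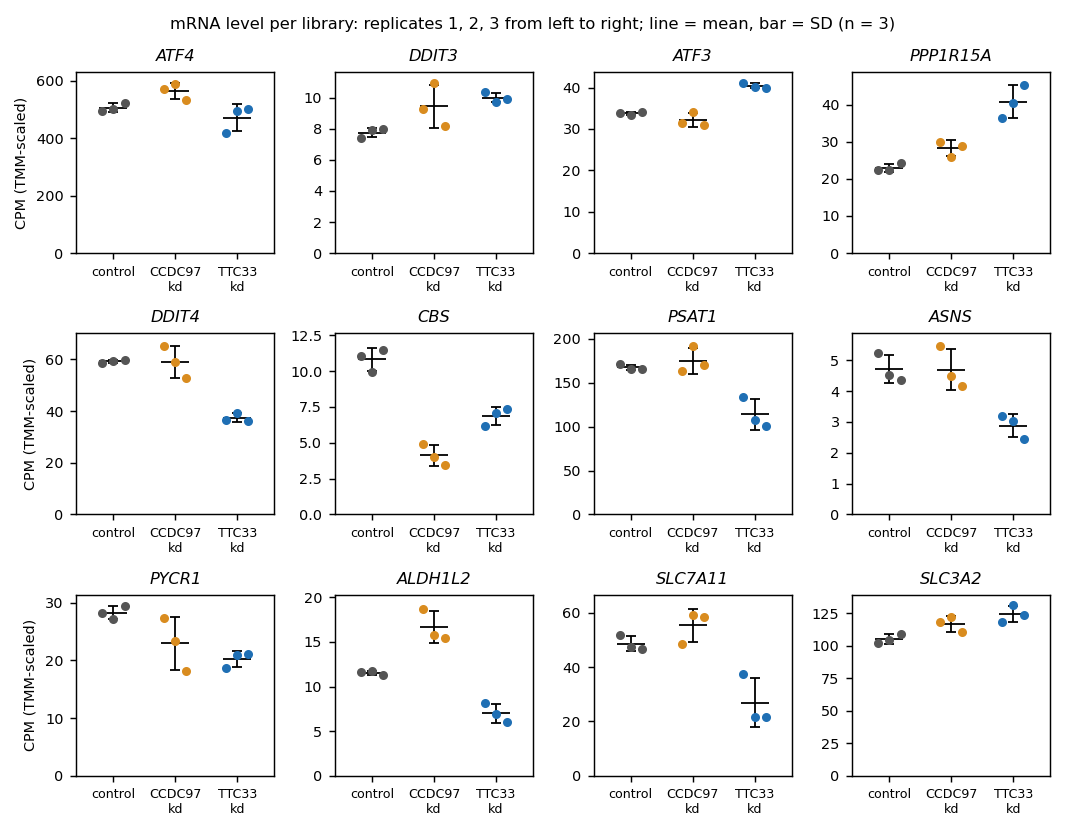
CPM per library (y axis, starting at 0) for 12 members in the 3 groups (x axis), with the mean as a line and the SD as a bar. PPP1R15A separated all 3 groups, and ALDH1L2 was highest in the CCDC97 knock-down and lowest in the TTC33 knock-down.

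Of the 7 genes of amino acid synthesis, 4 fell after TTC33 knock-down and none rose (57.1%, against 11.9% of all genes). The median log2 fold change was -0.48. All 7 had a negative fold change. PSAT1 (ENSG00000135069, chr9:78297143-78330093, plus strand) encodes the aminotransferase of the serine pathway. It was at 171, 166 and 166 CPM in the controls, 164, 192 and 170.2 in the CCDC97 and 134, 108 and 101 in the TTC33 knock-down, the last wholly below the others. PSAT1 fell by 0.56 ± 0.10 (log2, edgeR adjusted p = 0.00842), in each fit without 1 library too. With the GC correction it fell by 0.44 (adjusted p = 4.51e-05). Its neighbours in the pathway did not pass without the GC correction. PHGDH was at 238 to 254 CPM in the controls and 211 to 252 in the TTC33 knock-down, and PSPH at 25.1 to 27.5 and 21.5 to 22.8. With the GC correction PSPH passed at -0.27 (edgeR adjusted p = 0.00441), and PHGDH did not at -0.11 (0.11).

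ASNS (ENSG00000070669, chr7:97852118-97872542, minus strand) encodes asparagine synthetase, a classic ATF4 target. It was at 5.22, 4.52 and 4.38 CPM in the controls, 5.45, 4.49 and 4.16 in the CCDC97 and 3.18, 3.02 and 2.45 in the TTC33 knock-down, where the libraries lay below all others. ASNS fell by 0.70 ± 0.15 (log2, edgeR adjusted p = 0.0149), a call lost without control replicate 1 or 2 or TTC33 replicate 2 or 3 (adjusted p 0.0525 to 0.076). Its counting is uncertain, because 1985 of its 4455 exon bases are shared with AC079781.5 on the same strand and the pseudogene ASNSP1 is counted at a similar level. ASNSP1 was at 4.95, 3.84 and 3.9 CPM in the controls, 4.6, 4.29 and 4.55 in the CCDC97 and 3.12, 2.01 and 2.83 in the TTC33 knock-down. It fell by 0.67 ± 0.17 after TTC33 knock-down (edgeR adjusted p = 0.0293).

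CBS (ENSG00000160200, chr21:43053191-43076943, minus strand) encodes cystathionine beta-synthase, the entry enzyme of transsulfuration. It was at 11.1, 9.93 and 11.5 CPM in the controls, 4.92, 4.03 and 3.44 in the CCDC97 and 6.14, 7.07 and 7.38 in the TTC33 knock-down, so the 3 groups did not overlap and CCDC97 was lowest. CBS fell in both knock-downs, by 1.38 ± 0.14 for CCDC97 (log2, edgeR adjusted p = 0.000313) and by 0.66 ± 0.13 for TTC33 (adjusted p = 0.0107). The CCDC97 call held in each fit without 1 library, and the TTC33 call was lost without control replicate 1 or 3 (adjusted p 0.0544 to 0.0567). A near-identical copy, CBSL, was at 0.145 to 0.463 CPM, so reads that align to both may be missing from either count. CTH, which acts next in transsulfuration, was at 17 to 17.9 CPM in the controls and 14.4 to 15.5 in the TTC33 knock-down and was not called.

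PYCR1 (ENSG00000183010, chr17:81932384-81942412, minus strand) encodes the last enzyme of proline synthesis. It was at 28.2, 27.1 and 29.4 CPM in the controls, 27.3, 23.3 and 18.2 in the CCDC97 and 18.6, 20.9 and 21 in the TTC33 knock-down, and only the TTC33 libraries were clear of the controls. PYCR1 fell by 0.48 ± 0.13 (log2, edgeR adjusted p = 0.0344), a call lost without any 1 of the controls or TTC33 replicate 2 or 3 (adjusted p 0.0856 to 0.114). It shares 450 of its 2886 exon bases with AC145207.4 on the other strand and 408 with MYADML2.

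Of the 3 mitochondrial one-carbon enzymes, ALDH1L2 was called in both knock-downs, and the others in neither without the GC correction. ALDH1L2 (ENSG00000136010, chr12:105019784-105084577, minus strand) encodes the mitochondrial formyltetrahydrofolate dehydrogenase. It was at 11.6, 11.7 and 11.3 CPM in the controls, 18.7, 15.8 and 15.4 in the CCDC97 and 8.13, 6.87 and 6.04 in the TTC33 knock-down. All CCDC97 libraries were above and all TTC33 libraries below the controls. ALDH1L2 fell by 0.71 ± 0.12 after TTC33 knock-down (log2, edgeR adjusted p = 0.00522), in each fit without 1 library too. It rose by 0.53 ± 0.12 after CCDC97 knock-down (edgeR adjusted p = 0.0298), a call lost without any 1 of the controls or CCDC97 replicate 2 or 3 (adjusted p 0.0608 to 0.126). MTHFD2 was at 178 to 182 CPM in the controls, 125 to 168 in the CCDC97 and 130 to 168 in the TTC33 knock-down, below the controls in both. Its log2 fold change with the GC correction was -0.21 for TTC33 (edgeR adjusted p = 0.018) and -0.34 for CCDC97 (0.00147), and both passed. SHMT2, which makes glycine from serine, was at 279 to 296 CPM in the controls and 247 to 269 in the TTC33 knock-down, and with the GC correction its value was -0.29 and passed (edgeR adjusted p = 0.00113).

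Of the 6 transporters, 2 fell and 1 rose after TTC33 knock-down (50%, against 11.9% of all genes). SLC7A11 (ENSG00000151012, chr4:138164097-138242349, minus strand) encodes the cystine importer xCT. It was at 51.7, 47.4 and 46.6 CPM in the controls, 48.4, 59.2 and 58.4 in the CCDC97 and 37.3, 21.7 and 21.6 in the TTC33 knock-down. TTC33 replicates 2 and 3 were far below replicate 1, which was itself below the controls. SLC7A11 fell by 0.85 ± 0.18 (log2, edgeR adjusted p = 0.016), a call lost without any 1 of the controls or TTC33 replicate 2 or 3 (adjusted p 0.0515 to 0.0742). It has the lowest GC content of the members, 35.4%, and with the GC correction it fell by 0.55 (adjusted p = 1.93e-05). SLC7A11-AS1 shares 865 of its 9645 exon bases.

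SLC3A2 (ENSG00000168003, chr11:62856102-62888875, plus strand) encodes the heavy chain that partners xCT and the large neutral amino acid transporter at the membrane. It was at 102, 105 and 109 CPM in the controls, 118, 122 and 110.5 in the CCDC97 and 119, 131 and 124 in the TTC33 knock-down, with both knock-downs wholly above the controls. It rose by 0.24 ± 0.07 after TTC33 knock-down (log2, edgeR adjusted p = 0.0465). This call was lost without any 1 of the controls, CCDC97 replicate 2 or 3 or TTC33 replicate 2 or 3 (adjusted p 0.0562 to 0.183). With the GC correction the value was 0.10 and did not pass (adjusted p = 0.242).

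SLC7A3 (ENSG00000165349, chrX:70925582-70931125, minus strand) encodes a cationic amino acid transporter and was near the detection limit, with 26 to 44 counts in the controls, 7 to 16 in the CCDC97 and 5 to 14 in the TTC33 libraries. In CPM these were 0.94, 1.2 and 0.824, then 0.566, 0.463 and 0.339, then 0.45, 0.416 and 0.191, both knock-downs wholly below the controls. SLC7A3 fell by 1.46 ± 0.31 after TTC33 knock-down (log2, edgeR adjusted p = 0.0147), a call lost without control replicate 1 or 2 or TTC33 replicate 3 (adjusted p 0.0555 to 0.0768). In the CCDC97 knock-down its log2 fold change was -1.09 ± 0.30 (adjusted p = 0.0645), and -1.07 with the GC correction, which passed (adjusted p = 0.0213). SLC7A5 at 125 to 133 CPM and SLC7A1 at 236 to 246 CPM in the controls overlapped with the TTC33 libraries and were not called.

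SLC38A2 (ENSG00000134294, chr12:46358189-46372867, minus strand) encodes SNAT2, a sodium-coupled neutral amino acid transporter. It was at 418, 412 and 420.2 CPM in the controls, 397, 520.5 and 468 in the CCDC97 and 424, 299 and 268 in the TTC33 knock-down. TTC33 replicate 1 was above the controls and replicates 2 and 3 were far below them. Against control the log2 fold change of -0.34 ± 0.15 did not pass (edgeR adjusted p = 0.153). The transcript has a GC content of 38.1%, and with the GC correction the value was -0.13 (adjusted p = 0.144).

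**Figure D4:**
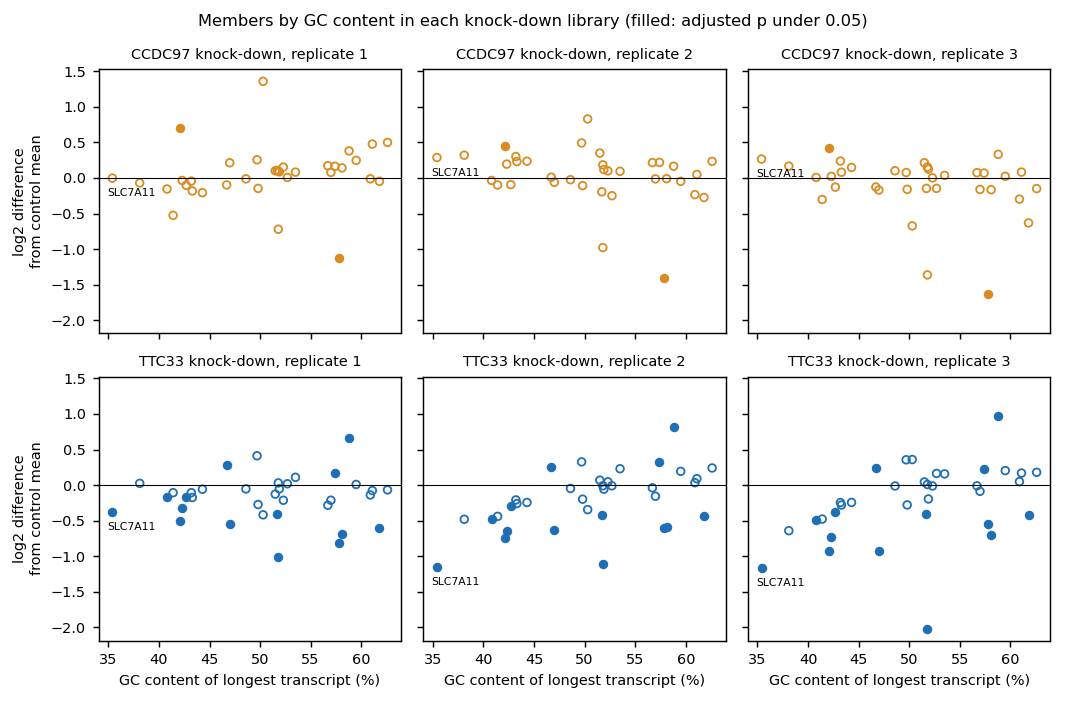
Each panel is 1 knock-down library, with the GC content of each member's longest transcript on the x axis and its log2 difference from the control mean on the y axis. Filled points are members called against control. SLC7A11, at 35.4% GC, lies at -0.38 in TTC33 replicate 1 and at -1.16 in replicates 2 and 3, the libraries in which genes of low GC content were low as a whole.

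The secreted hormone gene and the receptor gene both fell after TTC33 knock-down. STC2 (ENSG00000113739, chr5:173314713-173329503, minus strand), which encodes stanniocalcin 2, was at 86.6, 82 and 81.4 CPM in the controls, 89.7, 72.7 and 75.2 in the CCDC97 and 62.8, 62.2 and 62.6 in the TTC33 knock-down. The TTC33 libraries were within 1 CPM of each other and below all others. STC2 fell by 0.41 ± 0.084 (log2, edgeR adjusted p = 0.0124), a call lost without control replicate 1 or 2 or TTC33 replicate 2 (adjusted p 0.0547 to 0.0698). VLDLR (ENSG00000147852, chr9:2621834-2660053, plus strand), a lipoprotein receptor gene, was at 24.6, 25.2 and 26 CPM in the controls, 23.5, 23.6 and 23.1 in the CCDC97 and 22.5, 20.5 and 19.5 in the TTC33 knock-down, so the groups stood in that order without overlap. VLDLR fell by 0.28 ± 0.080 after TTC33 knock-down (log2, edgeR adjusted p = 0.0469), a call lost without any 1 of the controls, CCDC97 replicate 2 or 3 or TTC33 replicate 2 or 3 (adjusted p 0.0523 to 0.168). With the GC correction it fell by 0.20 (adjusted p = 0.0279). It shares 738 of 9339 exon bases with VLDLR-AS1.

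Of the 8 genes of tRNA charging and export, 1 fell after TTC33 knock-down and none rose (12.5%, near the 11.9% of all genes). The median log2 fold change was -0.069. XPOT (ENSG00000184575, chr12:64404350-64451127, plus strand) encodes exportin-t, which carries tRNA out of the nucleus. It was at 404, 394 and 388 CPM in the controls, 355, 386 and 397 in the CCDC97 and 353, 284 and 281 in the TTC33 knock-down, the last below all controls and with replicate 1 apart from the others. XPOT fell by 0.37 ± 0.090 (log2, edgeR adjusted p = 0.0259), a call lost without any 1 of the controls or TTC33 replicate 2 or 3 (adjusted p 0.0784 to 0.115). With the GC correction it fell by 0.24. None of the 7 synthetase members (AARS1, GARS1, WARS1, SARS1, EPRS1, CARS1, NARS1) was called by edgeR in either knock-down against control without the GC correction. With it WARS1 and SARS1 were higher after CCDC97 knock-down, by 0.18 (edgeR adjusted p = 0.0245) and 0.23 (0.0162), and in both the CCDC97 libraries lay above all controls. Of the 8 genes, XPOT included, 2 had an unadjusted p under 0.05 in each knock-down without the correction, and DESeq2 called 2 for TTC33 and 0 for CCDC97. Alanyl-tRNA synthetase, AARS1, was at 269, 269 and 279 CPM in the controls and 294, 319 and 304 in the TTC33 knock-down, above in all 3 libraries. All 3 CCDC97 libraries were above the controls too. With the GC correction the AARS1 value for TTC33 was 0.09 and did not pass (edgeR adjusted p = 0.17). EPRS1 and NARS1 went the other way, with all 3 TTC33 libraries below all controls.

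After CCDC97 knock-down, ALDH1L2 rose, CBS fell, and the other 33 members were not called. The share of members called, 5.71%, was close to the 4.56% of all genes tested, with 2.07% higher and 2.49% lower. The median log2 fold change was 0.070 over the members and 0.00083 over all genes. All 3 libraries lay above the controls for 9 members and below for 5, where 14.9% of all genes lay above and 15% below. Under the GC correction 8 members were called higher and 3 lower, while 19.3% of all genes were called. The higher ones were ALDH1L2, ATF4, PPP1R15A, SESN2, SLC7A5, SLC3A2, WARS1 and SARS1, and the lower ones CBS, MTHFD2 and SLC7A3. Without replicate 1 of CCDC97 or of TTC33, 3 members were called higher, with 2 and 3 lower. Without any single control, or without CCDC97 replicate 2 or 3, none was called higher and 1 was called lower.

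The 2 knock-downs share their controls, so the difference between them was tested directly. In the TTC33 knock-down 10 members were lower than in the CCDC97 knock-down and 3 higher, 37.1% of the members in all, against 21.5% of all genes tested (10.2% lower and 11.3% higher). Under the GC correction 19 were lower and 3 higher, CHAC1 and SESN2 among the lower, while 27.8% of all genes were called. Without it, the median was -0.17 over the members and 0.0050 over all genes. All TTC33 libraries lay below all CCDC97 libraries for 14 members and above for 4, against 14.5% and 15.9% of all genes. Without the correction, the largest difference among the members called was in ALDH1L2, -1.24 ± 0.12 on the log2 scale (edgeR adjusted p = 0.000114). SLC7A11 followed at -1.04 ± 0.18 (adjusted p = 0.00403). With the correction ALDH1L2 was at -1.14, DDIT4 at -0.85 and SLC7A11 at -0.73, so DDIT4 came before SLC7A11.

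ASNS, DDIT4 and PSAT1, which were not called in the CCDC97 knock-down, were lower in the TTC33 knock-down by direct test. Their log2 differences were -0.71 ± 0.15, -0.66 ± 0.085 and -0.62 ± 0.10, with edgeR adjusted p of 0.01, 0.000754 and 0.00312. With the GC correction they were -0.66, -0.85 and -0.44. The difference was -0.34 ± 0.085 for STC2 (edgeR adjusted p = 0.018), a call lost without TTC33 replicate 2 or 3 (adjusted p 0.0586 to 0.0672). It was -0.31 ± 0.09 for XPOT (edgeR adjusted p = 0.0331) and -0.15 with the GC correction, a call lost without any 1 of the controls, CCDC97 replicate 2 or 3 or TTC33 replicate 2 or 3 (adjusted p 0.0562 to 0.136). CBS was higher in the TTC33 knock-down by 0.72 ± 0.14 (edgeR adjusted p = 0.00624), PPP1R15A by 0.53 ± 0.10 (adjusted p = 0.00503) and ATF3 by 0.33 ± 0.071 (adjusted p = 0.0103). With the GC correction the PPP1R15A difference was 0.29 (adjusted p = 0.0051).

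Without the GC correction, ATF4, SLC38A2 and EPRS1 passed in this direct test and not against control, and all were lower in the TTC33 knock-down. With it ATF4 also passed against control. The ATF4 difference was -0.26 ± 0.079 (log2, edgeR adjusted p = 0.0398), with the TTC33 libraries at 417 to 504 CPM and the CCDC97 libraries at 534 to 589. It was lost without any 1 of the controls, CCDC97 replicate 2 or 3 or any 1 of the TTC33 libraries (adjusted p 0.0507 to 0.125), and with the GC correction it was -0.44 (adjusted p = 3.46e-05). EPRS1 (ENSG00000136628, chr1:219968601-220046658, minus strand), the glutamyl-prolyl-tRNA synthetase gene, was at 462, 486 and 474 CPM in the controls, 459.7, 584 and 559 in the CCDC97 and 440.5, 410.3 and 400 in the TTC33 knock-down. Its difference between the knock-downs was -0.36 ± 0.087 (edgeR adjusted p = 0.0171), lost without CCDC97 replicate 2 or 3 or TTC33 replicate 2 or 3 (adjusted p 0.0642 to 0.0682). With the GC correction the EPRS1 difference was -0.25 (adjusted p = 0.00512). SLC38A2 differed by -0.48 ± 0.15 (edgeR adjusted p = 0.0418) although its libraries overlapped, and by -0.23 with the GC correction. This call was lost without any 1 of the controls, CCDC97 replicate 2 or 3 or TTC33 replicate 2 or 3 (adjusted p 0.0648 to 0.162). The number of lower members was 6 without CCDC97 replicate 2 or 3 and 5 without TTC33 replicate 2 or 3.

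The other genes of the pathway were taken from 5 lists, and their counts stand against 11.9% of all genes called after TTC33 knock-down. Of 17 eIF2 kinases and related factors, 2 fell and none rose (11.8%, near that share), with a median of -0.043. IMPACT, which restrains the amino acid sensor GCN2, fell by 0.55 (log2, edgeR adjusted p = 0.0121), and by 0.32 with the GC correction. This call was lost without control replicate 1 or 2 or TTC33 replicate 2 (adjusted p 0.06 to 0.0614). EIF2AK4, which encodes GCN2, fell by 0.23 (edgeR adjusted p = 0.0443), a call lost without any 1 of the controls, CCDC97 replicate 3 or TTC33 replicate 2 or 3 (adjusted p 0.0522 to 0.173). Of 12 leucine zipper partners and relatives of ATF4, 1 rose and none fell (8.33%), with a median of 0.19. That gene was BATF2, up 1.55 (edgeR adjusted p = 0.00867) from 0.258 to 0.757 CPM, and the call was lost without control replicate 1 (adjusted p = 0.0504).

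Of 29 further ATF4 targets 27 were tested, 3 rose and 3 fell (22.2%), and the median was -0.046. TSC22D3, a leucine zipper gene induced by glucocorticoids, fell by 0.64 (log2, edgeR adjusted p = 0.000211). PCK2, the mitochondrial phosphoenolpyruvate carboxykinase gene, fell by 0.62 (adjusted p = 0.00257), and SQSTM1, which encodes the autophagy receptor p62, rose by 0.59 (adjusted p = 0.00221). With the GC correction TSC22D3 fell by 0.70, PCK2 fell by 0.795 and SQSTM1 rose by 0.43. The list of 16 other cytosolic tRNA synthetase genes also held AIMP1, AIMP2 and EEF1E1, which are not synthetases. On it HARS1 rose by 0.31 (edgeR adjusted p = 0.0195), and IARS1 fell by 0.32 (adjusted p = 0.0371). The HARS1 call was lost without any 1 of the controls or TTC33 replicate 2 or 3 (adjusted p 0.0654 to 0.109), and that of IARS1 without any 1 of the controls, CCDC97 replicate 3 or TTC33 replicate 2 or 3 (adjusted p 0.0512 to 0.135). None of 17 mitochondrial tRNA synthetases was called in edgeR without the GC correction, 2 had an unadjusted p under 0.05, and DESeq2 called 2.

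After CCDC97 knock-down 4.56% of all genes were called. From these lists the only calls were 1 of 16 on the cytosolic synthetase list (6.25%) and 2 of 17 mitochondrial synthetases (11.8%). These 3 were higher: TARS1 by 0.30 (log2, edgeR adjusted p = 0.0474), LARS2 by 0.36 (0.0162) and HARS2 by 0.38 (0.0269). The TARS1 call was lost without any 1 of the controls, CCDC97 replicate 2 or 3 or TTC33 replicate 2 or 3 (adjusted p 0.0692 to 0.21), that of LARS2 without any 1 of the controls or CCDC97 replicate 2 or 3 (adjusted p 0.056 to 0.115) and that of HARS2 without any 1 of the controls or CCDC97 replicate 2 (adjusted p 0.114 to 0.131). No kinase, leucine zipper partner or further target was called in edgeR without the GC correction, where 4 of 17, 1 of 12 and 7 of 27 had an unadjusted p under 0.05, and DESeq2 called 1, 1 and 2. Under the GC correction the 5 lists held 22 calls for CCDC97, where 19.3% of all genes were called, and 40 for TTC33, where 28% were. In the direct comparison 21.5% of all genes were called, 11.3% as higher and 10.2% as lower in the TTC33 knock-down. Of the 12 leucine zipper genes 4 were higher (33.3%) and none lower. Among them were JUN by 0.74 (edgeR adjusted p = 0.00164), CEBPB, which encodes a partner of ATF4, by 0.66 (0.00729) and BATF2 by 1.81 (0.00392). With the GC correction the CEBPB difference was 0.29 (adjusted p = 0.0153). Of the 17 kinases and related factors 3 were lower (17.6%, under the share of all genes called). Of the 27 further targets tested 5 were higher and 5 lower (37%). On the cytosolic synthetase list 5 of 16 genes were called (31.2%), all lower, led by IARS1 at -0.48 (edgeR adjusted p = 0.0045). Of 17 mitochondrial synthetases 4 were lower and 1 higher (29.4%). The lower ones included LARS2 at -0.32 (edgeR adjusted p = 0.00994) and IARS2 at -0.39 (0.00998).

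Promoter matches fell on members that rose, that fell and that were not called. Of the members with a promoter window, 1 of the 7 that fell after TTC33 knock-down held TGATGNAA (ASNS), 2 of the 3 that rose did (ATF3 and SLC3A2), and 6 of the 18 not called did. CHAC1, SLC7A1, AARS1, GARS1, CARS1 and NARS1 make up the last group. These counts describe a few genes and carry no test.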

How the data were processed

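Total RNA of 9 libraries was measured, 3 per group, with groups and replicate numbers from the labels. The authors deposited raw whole-number counts of reads for each gene. The submitters' processing notes name Trimmomatic 0.39 for trimming, HISAT2 for alignment and HTSeq 2.0.1 for counting, on GRCh38. The HISAT2 version, annotation release and strand setting: not given in the sources used here. The R12 table of each library was used; there is also a smaller one marked U (6.55% to 11.9% of their sum). What these marks mean is not stated. Rows that name no gene held 33.4% to 57.9% of R12 counts and were left out.

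Tests used edgeR 4.0.16 under R 4.3.3. filterByExpr kept 18299 genes, libraries were scaled by TMM, and 1 quasi-likelihood model, with group as the only term, was fitted across the 9 libraries (6 residual degrees of freedom, common biological coefficient of variation 0.109). Tests were two-sided, and p-values were adjusted by Benjamini-Hochberg over all genes tested (threshold 0.05). Each standard error was computed from a fold change and its F value. CPM are counts per 1000000 of the TMM-scaled library, and per-library log2 values use a prior count of 2. GC content and length are those of the longest transcript in GENCODE release 29, available for 18042 genes tested (98.6%), and the correction used smooth terms from mgcv 1.9.3. The steps were tested on simulated data.

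Values per library are given for ATF4, DDIT3 and each member past the threshold in a comparison, and of each pathway list for up to 3 genes with the smallest adjusted p; some genes are not reported here. The members and lists were chosen with earlier results of these data known. Alternatives were DESeq2 1.42.0 (size factors or Wald test), no filter, fits of 2 groups alone, a block for replicate number, both tables summed, the GC and length correction, and leaving out each library. Leaving out replicate 1 of both knock-downs was added after seeing the data.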

Additional observations from a re-analysis of the deposited data

Results flagged for a closer look

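ALDH1L2, the mitochondrial formyltetrahydrofolate dehydrogenase gene, rose in the CCDC97 knock-down and fell in the TTC33 knock-down, with no overlap between the 3 groups. The call of the CCDC97 rise was lost in 5 of 9 fits without 1 library (edgeR adjusted p 0.0608 to 0.126). It was also lost with a block for replicate number (adjusted p = 0.0616). The direct comparison of the knock-downs gave a log2 difference of -1.24 ± 0.12 (edgeR adjusted p = 0.000114, n = 3 libraries per group). All 3 TTC33 libraries were lower than all 3 CCDC97 libraries. Without the GC and length correction no other member was called in opposite directions against control; with it ATF4 was too, at -0.24 for TTC33 (edgeR adjusted p = 0.00518) and 0.21 for CCDC97 (0.0178).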

How the results depend on the processing

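Of 81 fold changes of named genes, 56 passed the threshold, and none of these changed sign under any alternative. Over 1458 combinations of gene and alternative, 1201 kept their direction and side of the threshold, 191 lost a call, 44 gained one and 22 changed sign. In each case below the cause was not tested.

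The number of members called higher and lower after TTC33 knock-down was 3 and 11. Leaving out 1 library gave 1 to 5 and 3 to 14. It was 1 higher without the filter, 5 higher with the DESeq2 Wald test, and 7 and 17 without replicate 1 of both knock-downs. After CCDC97 knock-down it was 1 and 1, and 0 to 3 and 1 to 3 on leaving out 1 library. It was 3 lower without the filter, 2 lower with the 2 groups alone or with the summed tables, 8 and 3 with the GC and length correction, 9 and 3 with that correction and the block, and 11 and 7 without replicate 1 of both knock-downs. Between the knock-downs it was 3 and 10, with 5 to 14 lower on leaving out 1 library, 5 lower with the 2 groups alone, 19 with the GC and length correction, 18 with that and the block, and 7 and 17 without replicate 1 of both knock-downs.

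Pairing of the libraries by replicate number was not steady across the comparisons. The deviations of same-numbered libraries correlated at 0.04 to 0.073 between the TTC33 knock-down and control, -0.03 to 0.094 between the CCDC97 knock-down and control, and -0.504 to -0.114 between the knock-downs. Between the TTC33 knock-down and control each library correlated best with its own number, though weakly, and other pairs were at 0.0204 or less. In the other comparisons not every library did. Weak pairing is therefore not excluded. With the replicate number as a block, 1 member was called higher and 7 lower for TTC33, 0 and 1 for CCDC97, and 3 and 6 between the knock-downs. It called 756, 240 and 1857 of all genes and 6, 0 and 11 pathway genes, and 22 of the 56 calls were lost.

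All genes called for TTC33 numbered 2186, and 552 to 6512 on leaving out 1 library, 3821 without the filter, 5126 with the GC and length correction, 4717 with that and the block, and 9129 without replicate 1 of both knock-downs. For CCDC97 they numbered 835, and 203 to 1981, 1369, 3533, 3135 and 6675 in the same order, 1471 with the DESeq2 Wald test and 1339 with the 2 groups alone. Between the knock-downs they numbered 3943, and 1528 to 7767 on leaving out 1 library, 1479 with the 2 groups alone and 10362 without replicate 1 of both.
The pathway lists gave 12 calls for TTC33, and 3 to 32 on leaving out 1 library, 22 without the filter, 19 with the DESeq2 Wald test, 40 with the GC and length correction, 35 with that and the block, and 49 without replicate 1 of both knock-downs. For CCDC97 they gave 3, and 0 to 11, 6, 9, 22, 21 and 45 in the same order, and 8 with the 2 groups alone. Between the knock-downs they gave 27, and 11 to 42 on leaving out 1 library, 10 with the 2 groups alone, 43 with the GC and length correction and 60 without replicate 1 of both.

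The values that changed sign were near 0 and not called. For CCDC97, DDIT4 (-0.0055) became 0.00013 with DESeq2 size factors, 0.00088 with the Wald test, 0.042 with the GC and length correction, 0.0400 with that and the block, and -0.086 to 0.063 on leaving out 1 library. ASNS (0.0029) became -0.024 without the filter, -0.0046 with the 2 groups alone and with the block, -0.041 with the summed tables, -0.018 with the GC and length correction, -0.025 with that and the block, -0.12 without replicate 1 of both knock-downs, and -0.12 to 0.083 on leaving out 1 library. PSAT1 (0.063) became -0.0048 with the GC and length correction, -0.0059 with that and the block, and -0.015 to 0.11 on leaving out 1 library. Between the knock-downs SLC3A2 (0.091) became -0.11 with the GC and length correction, with or without the block, and DDIT3 (0.076) ranged from -0.0202 to 0.19 on leaving out 1 library.

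Depth limits NUPR1, with 2 to 17 counts per library, and SLC7A3, with 5 to 44, where counting error alone is wide.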

Other observations

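Some close relatives of the members, listed after the data had been seen, were called after TTC33 knock-down, where 11.9% of all genes were. Differences between a relative and its member were not tested. STC1, the relative of STC2, was low but rose from 0.756 ± 0.090 to 1.95 ± 0.32 CPM (SD, n = 3 libraries per group), by 1.36 ± 0.19 on the log2 scale (SE, edgeR adjusted p = 0.00161), where STC2 fell. The sestrin genes SESN3 and SESN1 fell: SESN3 went from 220 ± 1.02 to 111 ± 32.8 CPM (log2 fold change -0.98 ± 0.17, edgeR adjusted p = 0.00494) and SESN1 from 58.0 ± 1.15 to 39.2 ± 3.55 CPM (-0.57 ± 0.098, adjusted p = 0.00565). LRP8, which encodes a receptor related to that of VLDLR, fell by 0.55 ± 0.070 (edgeR adjusted p = 0.00101) from 101 ± 2.19 to 68.9 ± 0.718 CPM. SLC7A2, a relative of SLC7A1, fell by 0.45 ± 0.11 (edgeR adjusted p = 0.0251).

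The other relatives examined, among them SHMT1, MTHFD1, MTHFD2L, SLC38A1, SLC7A6, SLC7A8, TRIB2 and CHAC2, were not called after TTC33 knock-down in edgeR. After CCDC97 knock-down the adjusted p of the 17 relatives was 0.165 or more without the GC and length correction. With it 5 of them passed, SESN3 at 0.24 (edgeR adjusted p = 0.00973), SESN1 at 0.19 (0.0244) and SLC38A1 at 0.18 (0.0308), and SLC7A2 at -0.19 (0.0161) and LRP8 at -0.15 (0.0445). The spread of SESN3 among the TTC33 libraries was wide, and with the GC and length correction its log2 fold change after TTC33 knock-down was -0.76.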
